A study of Homo sapiens with 3 samples.

Results

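The genes described here are 10 genes that cells can switch on quickly after a stimulus: the Fos family genes FOS, FOSB and FOSL2, the Jun family genes JUN, JUNB and JUND, and EGR1, ATF3, IER2 and KLF6. They were taken by name from the 3 count tables of a single-cell RNA-seq study of prostate cancer cells, and all 10 were among the 33423 genes of those tables. The study asked how prostate cancer cells respond and become resistant to enzalutamide (ENZ), a drug given against prostate cancer. The 3 libraries were made by Drop-seq, in which a droplet pairs a single cell with a bead whose barcode marks that cell, and a unique molecular identifier (UMI) marks each captured mRNA molecule. VCaP parental held cells of the VCaP line kept for 48 h with the vehicle, 0.1% DMSO. VCaP-ENZ48 held VCaP cells kept for 48 h with 10 µM ENZ. LNCaP-ENZ168 held cells of the LNCaP line kept for 168 h with 10 µM ENZ. Both are established lines grown from metastases of prostate cancer, LNCaP in RPMI and VCaP in DMEM, each with 10% FBS. Untreated LNCaP cells were not analysed here, so that in any comparison with LNCaP-ENZ168 the line, the medium and the time in the drug cannot be told apart. Each group had 1 library. No difference below has a replicate check, no test between groups was made, and every interval is a 95% interval that covers counting error only.

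Fos and Jun proteins are the main parts of AP-1, a pair of leucine zipper proteins that binds DNA at short sites in promoters and enhancers. Growth factors, stress and handling of cells act through MAP kinases on factors already bound at the promoters of these genes, so that their mRNAs appear within minutes and are soon degraded. Jun proteins can pair with each other or with Fos proteins, whereas Fos proteins need a Jun partner. EGR1 is a zinc finger transcription factor of the same early response, ATF3 is a leucine zipper factor induced by stress, IER2 is a small nuclear protein, and KLF6 is a zinc finger factor of the Krüppel-like family.

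After filtering, 944 cells of LNCaP-ENZ168, 997 of VCaP parental and 947 of VCaP-ENZ48 remained, with median depths of 5389, 17817 and 11224 UMIs per cell. No cell barcode was shared between any pair of the libraries. The luminal prostate genes KRT8, KRT18, HOXB13 and FOLH1 were above 90 CPM (counts per 1000000 UMIs of the library) in each library. The other luminal genes were not high throughout, with KLK3 at 7.64 CPM in VCaP parental, 10.9 CPM in VCaP-ENZ48 and 91.9 CPM in LNCaP-ENZ168, and KLK2 at 27.1 CPM in LNCaP-ENZ168. ERG, which VCaP expresses through a gene fusion, had 0 UMIs in LNCaP-ENZ168, which allows up to 0.475 CPM, against 105 CPM in VCaP parental and 57.1 CPM in VCaP-ENZ48. KLK2, a kallikrein gene that responds to androgen, was at 1554 CPM in VCaP parental and at 3053 CPM in VCaP-ENZ48, so that this gene was higher in the library labelled with the drug. Markers of fibroblasts, immune and endothelial cells summed to 4.12 CPM in LNCaP-ENZ168, 22.03 CPM in VCaP parental and 26.6 CPM in VCaP-ENZ48, of which LUM alone made up 21.0 and 25.2 CPM in the VCaP libraries. The genes of S and G2M phases took a median of 0.330% of a cell's UMIs in LNCaP-ENZ168, 1.15% in VCaP parental and 0.179% in VCaP-ENZ48.

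The genes lie on 6 chromosomes. On GRCh38, FOS is at chr14:75278826-75282230, FOSB at chr19:45467995-45475179, FOSL2 at chr2:28392448-28417317, JUN at chr1:58776845-58784048, JUNB at chr19:12791486-12793315 and JUND at chr19:18279694-18281622. EGR1 is at chr5:138465479-138469303, ATF3 at chr1:212565334-212620777, IER2 at chr19:13150411-13154911 and KLF6 at chr10:3775996-3785281. JUN, JUND and KLF6 are on the minus strand, and JUN, JUNB and JUND each have 1 exon. FOSB, FOSL2, JUNB and IER2 overlap genes on the other strand, and only FOSL2 also overlaps a gene on its own strand, a long non-coding RNA. How reads in these overlaps were assigned was not checked.

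The promoters of 4 genes are shown, which moved in different directions below and which each held a match to a site marked here. The sequences are from RefSeq (GRCh38.p14), each from 150 to 11 bases before the annotated start of the gene, read 5′ to 3′ on the strand of the gene. Capitals mark matches to the CArG box, which is bound by serum response factor (SRF), and to TGACG, the core of the site of the CREB and ATF factors, on either strand. EGR1 is at chr5:138465329-138465468, JUNB at chr19:12791336-12791475, FOS at chr14:75278678-75278817 and JUN at chr1:58784058-58784197 on the minus strand.
EGR1: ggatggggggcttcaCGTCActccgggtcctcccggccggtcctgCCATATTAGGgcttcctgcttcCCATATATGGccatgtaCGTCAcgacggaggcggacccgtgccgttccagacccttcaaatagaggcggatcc
JUNB: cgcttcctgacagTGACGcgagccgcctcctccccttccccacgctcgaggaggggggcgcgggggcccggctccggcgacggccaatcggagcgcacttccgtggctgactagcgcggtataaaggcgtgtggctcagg
FOS: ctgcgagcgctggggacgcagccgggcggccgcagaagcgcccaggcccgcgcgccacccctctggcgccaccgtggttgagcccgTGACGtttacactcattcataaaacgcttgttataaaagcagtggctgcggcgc
JUN: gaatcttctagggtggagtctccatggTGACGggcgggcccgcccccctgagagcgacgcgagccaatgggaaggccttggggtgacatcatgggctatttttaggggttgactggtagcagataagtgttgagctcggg

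The EGR1 promoter held 2 CArG boxes, at 105 and 83 bases before the start, and 2 copies of TGACG read on the other strand. Each promoter was searched over a window of 300 bases, with 250 bases before the start and 50 bases from it. Sites outside the window were not searched, so a gene without a match here can hold one elsewhere. Within the window a CArG box was found in 1.29% of the 35116 promoters of the RefSeq table, and among the 10 genes only in EGR1. The core TGACG was far more common, in 24.6% of all promoters. It was found in 8 of the 10 genes, those without it being ATF3, for which 2 windows were searched, and KLF6. The full palindrome TGACGTCA was found in 1.85% of promoters and here in JUND, where it overlaps 2 of the 3 matches to TGACG. The AP-1 site TGAGTCA was found in 4.95% of promoters and here in FOSL2, starting 5 bases after the start. A match describes the letters of these windows and does not show that a factor was bound.

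FOS was the most abundant of the 10 mRNAs in every library. Its level was 1521 CPM in LNCaP-ENZ168 (1491 to 1552), 1002 CPM in VCaP parental (988 to 1016) and 810 CPM in VCaP-ENZ48 (795 to 825). JUN, its principal partner, was next, at 655 CPM in LNCaP-ENZ168 (635 to 675), 597 CPM in VCaP parental (586 to 608) and 293 CPM in VCaP-ENZ48 (284 to 302). The other Jun genes were much lower. JUNB, which can restrain JUN, was at 87.0 CPM in LNCaP-ENZ168 (79.8 to 94.5), 17.4 CPM in VCaP parental (15.6 to 19.3) and 42.7 CPM in VCaP-ENZ48 (39.3 to 46.2). JUND, the Jun protein usually present without a stimulus, was at 20.1 CPM in LNCaP-ENZ168, 24.4 CPM in VCaP parental and 17.1 CPM in VCaP-ENZ48, and its interval in LNCaP-ENZ168 (16.8 to 23.9) overlapped those of both VCaP libraries. FOSB was at 103 CPM in LNCaP-ENZ168, 110 CPM in VCaP parental and 90.9 CPM in VCaP-ENZ48. FOSL2, which encodes Fra-2, had the fewest UMIs of the 10 genes, at 8.71 CPM in LNCaP-ENZ168 (55 UMIs), 2.66 CPM in VCaP parental (52 UMIs) and 7.06 CPM in VCaP-ENZ48 (101 UMIs).

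Of the genes outside the Fos and Jun families, EGR1 was at 187 CPM in LNCaP-ENZ168 (176 to 198), 28.6 CPM in VCaP parental (26.3 to 31.1) and 189 CPM in VCaP-ENZ48 (182 to 196), so that both ENZ libraries were high and the vehicle library was low. IER2 had the same low library, at 289 CPM in LNCaP-ENZ168 (276 to 303), 66.6 CPM in VCaP parental (63.0 to 70.3) and 186 CPM in VCaP-ENZ48 (179 to 194). ATF3 stood apart in LNCaP-ENZ168, at 244 CPM (232 to 256), against 48.5 CPM in VCaP parental (45.5 to 51.7) and 14.7 CPM in VCaP-ENZ48 (12.8 to 16.8). KLF6 showed the reverse of EGR1, with 89.97 CPM in LNCaP-ENZ168 (82.7 to 97.7), 247 CPM in VCaP parental (240 to 254) and 107 CPM in VCaP-ENZ48 (102 to 113).

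**Figure D1:**
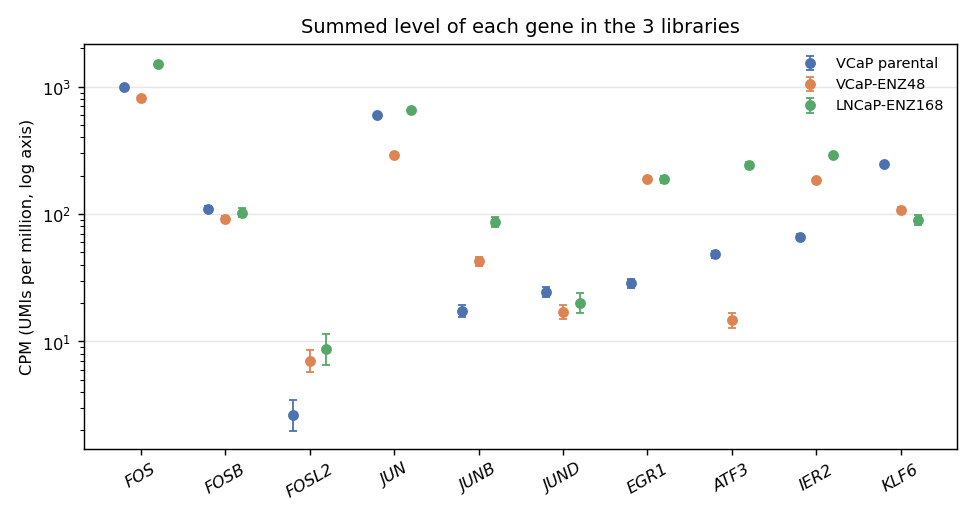
Level of each of the 10 genes in the 3 libraries, in CPM on a log axis. Points are sums over the cells kept in 1 library and bars are exact Poisson 95% intervals; EGR1 and IER2 are low in VCaP parental, KLF6 is high there, and ATF3 ranges from 14.7 CPM in VCaP-ENZ48 to 244 CPM in LNCaP-ENZ168.

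Together the 10 genes took 3204 CPM in LNCaP-ENZ168 (3160 to 3249), 2144 CPM in VCaP parental (2123 to 2164) and 1758 CPM in VCaP-ENZ48 (1737 to 1780). UMIs count captured molecules near the 3′ end and were not divided by gene length. Within this sum the share of FOS hardly differed, at 47.5%, 46.7% and 46.1% in the same order. The rest of the sum was made up differently. JUN took 20.4% in LNCaP-ENZ168, 27.8% in VCaP parental and 16.7% in VCaP-ENZ48. EGR1 and IER2 took 1.33% and 3.11% in VCaP parental but 10.7% and 10.6% in VCaP-ENZ48. KLF6 took 11.5% in VCaP parental and 6.10% in VCaP-ENZ48, and ATF3 took 7.60% in LNCaP-ENZ168 against 0.835% in VCaP-ENZ48. Among Jun family UMIs, JUNB had 2.72% in VCaP parental (2.44 to 3.02%), 12.1% in VCaP-ENZ48 (11.2 to 13.0%) and 11.4% in LNCaP-ENZ168 (10.5 to 12.3%).

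**Figure D2:**
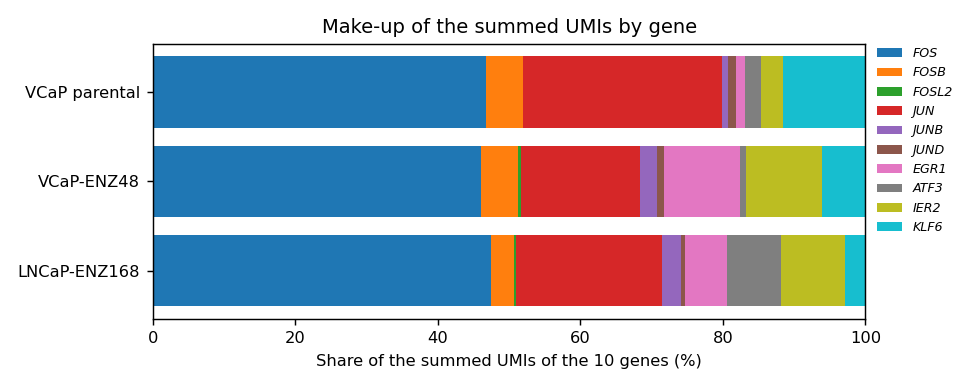
Share of each gene in the summed UMIs of the 10 genes, in percent, with 1 bar for each library. The FOS segment is nearly the same length in the 3 bars, while EGR1 and IER2 are narrow in VCaP parental, with 1.33% and 3.11%, and wide in VCaP-ENZ48, with 10.7% and 10.6%.

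The first comparison set VCaP cells in the drug against VCaP cells in the vehicle. EGR1 was 6.61-fold higher in VCaP-ENZ48, a log2 ratio of 2.68 (2.59 to 2.86), and only 11 of the 7729 genes whose mean reached 10 CPM had a higher ratio. IER2 was higher by a log2 ratio of 1.47 (1.39 to 1.58) and JUNB by 1.25 (1.10 to 1.49). These 3 genes were the members past a log2 ratio of 1 in that direction, 3 of the 9 that reached the expression minimum, where 8.19% of all genes were that much higher. In the other direction ATF3 was lower, with a log2 ratio of -1.66 (-1.95 to -1.51), KLF6 with -1.19 (-1.28 to -1.12) and JUN with -1.02 (-1.08 to -0.97), again 3 of 9, where 6.77% of all genes were that much lower. The 10 genes thus did not move as a block between the VCaP libraries.

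The Fos family and JUND differed less. FOS had a log2 ratio of -0.31 (-0.34 to -0.27), FOSB of -0.27 (-0.38 to -0.18) and JUND of -0.49 (-0.74 to -0.29). FOSL2 had a log2 ratio of 1.14 with an interval of 0.91 to 1.92, but it did not reach the expression minimum and was not among the 9. The median of all genes was -0.07, and relative to it EGR1 was at 2.75, IER2 at 1.54 and JUNB at 1.32, while ATF3 was at -1.59, KLF6 at -1.13, JUN at -0.96 and FOS at -0.24. The median of the 9 members was -0.31. Summed, the 10 genes had a log2 ratio of -0.29 (-0.31 to -0.26), the Fos family one of -0.30 and the Jun family one of -0.85. The remaining 4 genes together had one of 0.35.

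**Figure D3:**
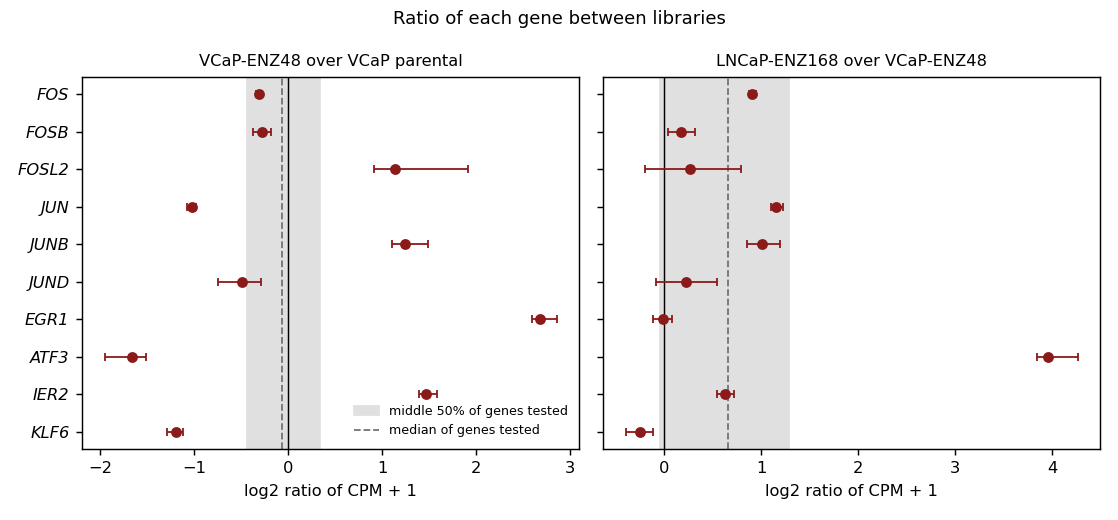
Log2 ratio of CPM + 1 of each gene for VCaP-ENZ48 over VCaP parental and for LNCaP-ENZ168 over VCaP-ENZ48. Bars are exact conditional 95% intervals of the ratio, the grey band holds the middle 50% of genes tested and the dashed line is their median; EGR1 lies far to the right in the first comparison and ATF3 in the second.

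The VCaP libraries differed in the share of UMIs from cell cycle genes, in depth and in the share of mitochondrial UMIs (6.24% in VCaP parental and 7.49% in VCaP-ENZ48). The ratios were therefore also taken between cells restricted by 1 measure at a time, the cell cycle share or the depth. Cells were not matched for the mitochondrial share or for these measures jointly. Among cells with few S and G2M UMIs, 77 in VCaP parental and 716 in VCaP-ENZ48, the log2 ratio of EGR1 was 3.25 (2.76 to 3.93), that of IER2 1.92 and that of ATF3 -1.35. JUN was at -0.92 (-1.04 to -0.80) in these cells. Among cells of 5000 to 15000 UMIs, 303 in VCaP parental and 404 in VCaP-ENZ48, EGR1 was at 2.60 (2.36 to 2.94), IER2 at 2.03 and KLF6 at -1.29, while JUN was at -0.68 (-0.79 to -0.57) and so inside a log2 ratio of 1. No member changed the sign of its ratio between the VCaP libraries under any of the 11 alternatives run, and the range was 2.40 to 3.25 for EGR1 and -1.95 to -1.35 for ATF3. JUN was past a log2 ratio of 1 in 8 of the 11 alternatives, and JUNB and KLF6 each in 10. FOSL2 had the widest range, 0.09 to 1.83, the lower end being among barcodes that ended in a base, with an interval of -1.02 to 1.25.

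The second comparison set LNCaP-ENZ168 against VCaP-ENZ48, which differ in line, medium and time. ATF3 was 16.6-fold higher in LNCaP-ENZ168, a log2 ratio of 3.96 (3.84 to 4.27), and 1.33% of the 8854 genes tested were above it. JUN had a log2 ratio of 1.16 (1.10 to 1.22) and JUNB one of 1.01 (0.86 to 1.20). These 3 of 9 members were past a log2 ratio of 1, but so were 35.5% of all genes, and the median of all genes was 0.65. JUN and JUNB were inside that size under each of the 3 other scalings, at 0.63 and 0.49 with TMM, and JUNB passed it in 4 of the 11 alternatives. No member was lower by that much, where 11.1% of all genes were. Relative to the median of all genes ATF3 was at 3.31, JUN at 0.50, JUNB at 0.36, FOS at 0.25 and IER2 at -0.02. EGR1 did not differ beyond its counting interval, with a log2 ratio of -0.01 (-0.11 to 0.08), which is -0.67 relative to all genes, and KLF6 was at -0.25 (-0.40 to -0.11), which is -0.91 relative to all genes. FOSB, FOSL2, JUND, EGR1 and KLF6 changed the sign of their ratio under at least 1 of the 11 alternatives in this comparison, so that no direction is given for them.

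The number of cells with a UMI of each gene was compared after every cell was thinned to 2000 UMIs, which left 943 cells of LNCaP-ENZ168, 997 of VCaP parental and 917 of VCaP-ENZ48. FOS was found in 84.9% of LNCaP-ENZ168 cells (82.5 to 87.2%), 73.5% of VCaP parental cells and 62.5% of VCaP-ENZ48 cells. EGR1 was found in 29.6% of LNCaP-ENZ168 cells (279 cells), in 4.81% of VCaP parental cells (48 cells) and in 24.2% of VCaP-ENZ48 cells (222 cells). Before thinning, the shares of EGR1 were 56.7%, 22.5% and 56.0% in the same order. The higher level of EGR1 in VCaP-ENZ48 thus came with more cells that held its UMIs. With so few UMIs per cell this share follows the level closely, so it is not a separate result. ATF3 was found in 31.8% of LNCaP-ENZ168 cells but in 7.62% of VCaP parental and 2.62% of VCaP-ENZ48 cells (24 cells). IER2 was found in 39.1%, 10.3% and 27.6% of cells in the order LNCaP-ENZ168, VCaP parental and VCaP-ENZ48, and KLF6 in 13.8%, 36.1% and 17.4%. JUN was found in 58.7%, 56.9% and 35.6%, and JUNB in 15.9%, 2.81% and 7.63%. FOSB, JUND and FOSL2 stayed within 13.5 to 17.0%, 3.93 to 4.45% and 0.502 to 1.80% of cells. Each library held 1 line, so that the share of cells with a UMI of these genes from free RNA could not be measured in a cell type that lacks them.

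**Figure D4:**
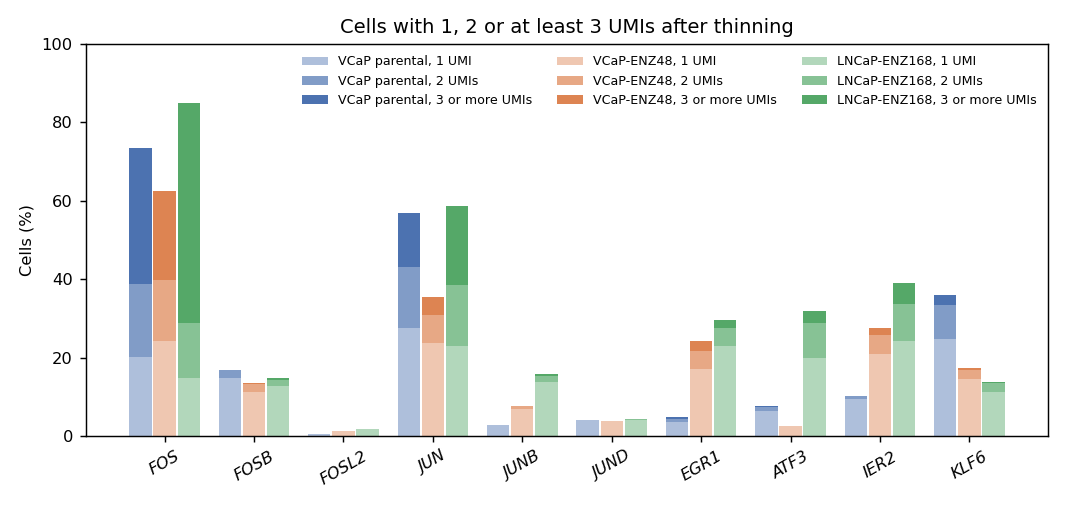
Percent of thinned cells with 1, 2 or at least 3 UMIs of each gene in the 3 libraries (stacked, paler to darker). FOS is found in 62.5 to 84.9% of cells, EGR1 in 4.81% of VCaP parental against 24.2% of VCaP-ENZ48 cells, and ATF3 in 31.8% of LNCaP-ENZ168 cells against 2.62% of VCaP-ENZ48 cells.

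Within a library the genes were unevenly spread. Before thinning, the 10% of VCaP parental cells with the most EGR1 held 77.8% of its UMIs, against 52.9% in VCaP-ENZ48 and 42.9% in LNCaP-ENZ168, and the highest single cell had 27, 68 and 33 EGR1 UMIs in the same order. For FOS, the most abundant of the genes, the share was 26.8 to 38.8%, and such shares are larger for rarer genes. Over thinned cells the ratio of variance to mean of FOS was 2.00 in LNCaP-ENZ168, 1.87 in VCaP parental and 2.08 in VCaP-ENZ48, the highest of the 10 genes in both VCaP libraries, and JUN was highest in LNCaP-ENZ168 at 2.50. For unevenly spread genes this ratio tends to be larger where a gene is more abundant, so it does not rank them by unevenness. In VCaP parental EGR1 reached 1.81 on 66 thinned UMIs, where FOS had 2036. At least 3 FOS UMIs were found in 56.0% of thinned LNCaP-ENZ168 cells, 34.7% of VCaP parental cells and 22.6% of VCaP-ENZ48 cells. A thinned cell held UMIs of a median of 3 of the 10 genes in LNCaP-ENZ168 and of 2 in either VCaP library. None of the 10 was found in 6.57%, 10.0% and 16.5% of cells of LNCaP-ENZ168, VCaP parental and VCaP-ENZ48.

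The genes tended to be found in the same cells, although weakly. Over the 36 pairs of the 9 genes found in at least 2% of thinned cells of each library, the mean Pearson r of log2(UMI + 1) was 0.11 over 943 cells of LNCaP-ENZ168, 0.067 over 997 cells of VCaP parental and 0.084 over 917 cells of VCaP-ENZ48. All cells of a library share its preparation, and most values of most genes are 0 after thinning, so these are descriptions. Pairs of other genes were not measured beside them, so whether the 9 genes go together more than other genes was not tested. FOS and JUN were the closest pair in LNCaP-ENZ168, with r = 0.32, and JUN was found in 63.2% of the cells with FOS but in 33.8% of those without. In VCaP parental the same shares were 61.4% and 44.3%, and in VCaP-ENZ48 they were 42.1% and 24.7%. In VCaP-ENZ48 the closest pair was FOS and EGR1, with r = 0.23, followed by JUN and IER2 with 0.23 and EGR1 and IER2 with 0.22. There IER2 was found in 45.5% of the 222 cells with EGR1 and in 21.9% of the 695 cells without it. In VCaP parental the closest pair was FOS and FOSB, with r = 0.23. FOSB was found there in 20.3% of cells with FOS and in 7.58% of cells without. ATF3 went with JUN at r = 0.27 and with FOS at 0.23 in LNCaP-ENZ168, the library in which it was high.

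**Figure D5:**
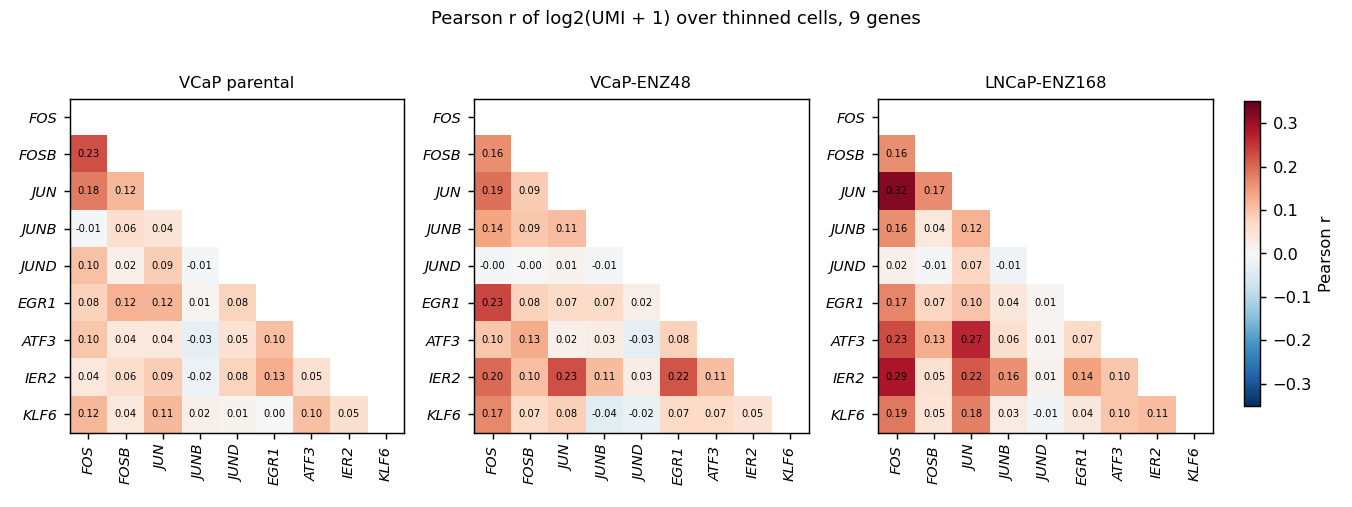
Pearson r of log2(UMI + 1) over thinned cells for each pair of 9 of the genes in the 3 libraries (FOSL2 left out as too rare). Values run from -0.04 to 0.32, with FOS and JUN highest in LNCaP-ENZ168, FOS and FOSB in VCaP parental, and FOS and EGR1 in VCaP-ENZ48.

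Other genes that varied with the summed UMIs of the 10 genes were sought among genes found in at least 10% of thinned cells. In VCaP-ENZ48 the 5 most alike of 2508 genes were H3-3B, a replacement histone (r = 0.23), ID2, an inhibitor of helix-loop-helix factors (0.20), ACTG1, a cytoplasmic actin (0.20), ZFP36, which promotes decay of early response mRNAs (0.19), and PPP1R15A, a stress-induced phosphatase subunit (0.19). In VCaP parental the leading ones of 2793 genes were PPP1R15A (0.16), ID2 (0.14), NEAT1 (0.14) and TUBA1A (0.13). ID2 and PPP1R15A were thus among the 5 in both VCaP libraries. The lowest r in VCaP parental, read after the values were seen, was -0.13 (NMU). The leading values there were thus of much the same size as the opposite end. In LNCaP-ENZ168 the 5 were MALAT1 (0.29), MAP1B (0.28), ACTG1 (0.28), CIRBP (0.23) and SAT1 (0.22). At the other end, chosen after their values were seen, the genes with the lowest r in LNCaP-ENZ168 were PTTG1 (-0.30), CENPF (-0.28), TUBA1B (-0.27), H2AZ1 (-0.26) and TOP2A (-0.25), several of which serve cell division.

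The level of the genes also differed with cell cycle genes, mitochondrial UMIs and depth within a library. In LNCaP-ENZ168 the summed UMIs of the 10 genes had r = -0.32 with the share of S and G2M UMIs, and FOS was at 1146 CPM in the cells of the highest of 3 equal parts by that share, against 1695 and 1730 CPM in the lowest and the middle part. EGR1 was at 123 CPM in that part, against 228 and 210 CPM, and ATF3 at 168 CPM, against 269 and 296 CPM. In VCaP parental that relation was not seen for the sum (r = -0.036). EGR1 went the other way there, at 18.8, 22.4 and 43.3 CPM from the lowest to the highest part, and IER2 was at 44.9, 73.9 and 78.3 CPM. In VCaP-ENZ48 the sum had r = -0.21 with the mitochondrial share, with FOS at 951, 768 and 683 CPM from the lowest to the highest part and EGR1 level at 190, 186 and 191 CPM. FOS was also lower in the shallowest of 3 equal parts of the VCaP-ENZ48 cells, at 578 CPM against 835 and 834 CPM in the others. In LNCaP-ENZ168 FOS was instead highest in the shallowest part, at 1732, 1531 and 1442 CPM from the shallowest to the deepest, and in VCaP parental it was at 1004, 1036 and 980 CPM. The part of these measures in the differences between libraries was not tested beyond the comparisons above, in which cells were restricted by cell cycle share or by depth.

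Genes of the same response and pathway were taken from lists that were chosen with earlier results of these data known. Of 32 other immediate early genes in the tables, 16 reached the expression minimum between the VCaP libraries, 4 were higher in VCaP-ENZ48 by a log2 ratio of 1 and 0 were lower by that much, where 8.19% and 6.77% of all genes were. Their median was 0.56, against -0.07 over all genes. The highest were ZFP36, at 82.0 CPM against 19.2 CPM, a log2 ratio of 2.04 (1.93 to 2.27), and BTG2, an antiproliferative gene, at 276 CPM against 76.0 CPM, a log2 ratio of 1.85 (1.78 to 1.95). The lowest were KLF10, with -0.86 (-1.20 to -0.64), and NFKBIA, the NF-κB inhibitor, with -0.54. Of 16 tested genes for receptors, MAP kinases and the SRF, ELK and CREB factors, 0 were past a log2 ratio of 1 in either direction, with a median of -0.06. BRAF was highest at 0.85 and MAP2K1 next at 0.58, and NRAS was lowest at -0.29 and RPS6KA3 next at -0.14. Of 4 tested feedback inhibitors of MAP kinases, DUSP6, a phosphatase that acts on ERK, was higher by 1.52 (1.35 to 2.04), at 17.2 CPM against 5.33 CPM, while DUSP1 was at 0.07, ERRFI1 at -0.32 and SPRY1 at -0.52. Of 13 known AP-1 targets, CCND1 and MT2A reached the minimum, CCND1 with a log2 ratio of -0.78 (-0.83 to -0.73) and MT2A with -1.21 (-1.26 to -1.16). Of 3 tested genes of the wider AP-1 family, ATF2, ATF7 and MAFG, 0 were past a log2 ratio of 1. Of 7 tested luminal prostate genes 3 were higher by that much, against the same 8.19% of all genes, with FOLH1 at 1.17 and KRT8 at 1.08 the highest and KRT18 at 0.33 the lowest.

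Cells were detached with an enzyme before capture, and genes of heat shock and of the integrated stress response were therefore read beside the members. Of 8 tested heat shock and ubiquitin genes, 1 was higher in VCaP-ENZ48 by a log2 ratio of 1, which was HSPA1B at 1.25. Over all genes 8.19% were that much higher. HSPH1 was lowest at -0.88 and HSPE1 next at -0.77. Of the stress response genes, ATF4, which can activate ATF3, was at 0.96 (0.88 to 1.05) and DDIT4 at 0.93, whereas DDIT3 was at -0.03 (-0.13 to 0.07). ATF3 itself was lower in that comparison, as given above. The part of handling in the levels was not tested.

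Between LNCaP-ENZ168 and VCaP-ENZ48 the same lists were read against a median of all genes of 0.65, where 35.5% of all genes were higher by a log2 ratio of 1 and 11.1% lower. Of 18 other immediate early genes tested, 8 were higher by a log2 ratio of 1 and 4 lower, with a median of 0.82. ZFP36L1 was highest at 3.02 and NR4A2 next at 2.90, while BTG2 was lowest at -2.50 and MYC next at -1.77. Of 20 receptor and MAP kinase pathway genes 11 were higher, with a median of 1.07. ERBB3 was at 3.31 and ERBB2 at 3.24, and BRAF was lowest at -0.63 and RPS6KA3 next at -0.62. Of 5 feedback inhibitors 4 were higher, led by DUSP16 at 2.64 and DUSP1 at 1.78, while DUSP6 was lower at -1.48 and ERRFI1 was at 1.24. Of 5 stress response genes 3 were higher, with SESN2 at 3.68 (15 UMIs in VCaP-ENZ48), DDIT4 at 1.97, DDIT3 at 0.62 and ATF4 at 0.86. Of 9 heat shock genes 4 were higher, HSPB1 highest at 5.79 on 14 UMIs in VCaP-ENZ48, DNAJB1 next at 1.74, and HSPE1 was among the lowest at -0.34. Of the AP-1 targets, VIM rested on 1 UMI in VCaP-ENZ48 against 186 in LNCaP-ENZ168, a ratio whose interval ran from 6.22 to 14.03 on the log2 scale, CCND1 was at 0.40 and MT2A at -2.24. Of the wider AP-1 family ATF7 was at 0.26, MAFG at 0.17 and ATF2 at 0.08. Of 8 luminal genes KLK3 was highest at 2.96 and FOLH1 next at 0.51, and KLK2 was lowest at -6.76.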

How the data were processed

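Drop-seq gave 1 library each of LNCaP-ENZ168, VCaP parental and VCaP-ENZ48. STAR, Picard and the Drop-seq tools were run by the authors on GRCh38 and Gencode annotation, with 1000 cells expected per library. They deposited raw UMI counts for 1000 barcodes a library, with no cell filter stated. A gene absent from a table was taken as 0. The barcodes of 205, 859 and 820 kept cells, in that order, ended in an undetermined base. Coordinates and overlaps are from Gencode 44.

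Cells with at least 300 genes, 500 UMIs and at most 25% mitochondrial UMIs were kept, holding 6313283, 19515202 and 14301287 UMIs. Doublets were not identified or removed. UMIs were summed per library and scaled to CPM. Ratios are log2 ratios of CPM + 1, which understate differences of low genes, with exact conditional intervals of the CPM ratio. A gene counted as tested where its mean over the libraries of a comparison reached 10 CPM, and a log2 ratio of 1 was the size counted. Levels carry exact Poisson and shares exact Clopper-Pearson intervals, and a count of 0 allows up to 3 counts. Shares of cells and correlations used cells thinned to 2000 UMIs, drawn without replacement. S and G2M genes (97 found) were those of Seurat. Groups had 1 library, so no test was made and cells were not taken as replicates.

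Named genes were the 10 members, the 2 highest and 2 lowest genes of each other list per comparison and the 5 genes most alike to the summed members. The members and lists were chosen with earlier results of these data known. IER3, COL1A2, CD3E and CLDN5 were not analysed here, and some genes that the rule names are not reported here. All 10 members matched the RefSeq promoter table by symbol. The steps were tested on simulated data. Alternatives covered the cell filter, depth, cell cycle, scaling, pseudocount, expression minimum and thinning, and the band of 5000 to 15000 UMIs was chosen after seeing the data. TMM factors came from edgeR 4.0.16 and cell cycle genes from Seurat 5.3.0, both in R 4.3.3. All else ran in Python 3.11.15 (scipy 1.17.1, numpy 2.4.6, matplotlib 3.10.9, pandas 2.3.3).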

Additional observations from a re-analysis of the deposited data

How the results depend on the processing

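No paired analysis was possible because there was 1 library a group. Precision is limited by that and, for FOSL2, by 52 to 101 UMIs per library. A ratio was taken to hold where it stayed inside its counting interval, and a mean correlation where it moved by less than 0.02. Of 220 ratios of single members under alternatives, 127 held, 88 moved and 5 reversed, counting as reversed only those whose interval under the main setting excluded 0. These 5 were all between LNCaP-ENZ168 and VCaP-ENZ48: FOSB at -0.35 with TMM scaling, -0.32 with median-of-ratios scaling, -0.10 with a total without mitochondrial and ribosomal protein genes and -0.041 among barcodes that end in a base, and KLF6 at 0.0029 among the least cycling cells. The causes were not tested.

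The summed members of VCaP-ENZ48 over VCaP parental (-0.29) moved to -0.26 with at most 15% mitochondrial UMIs, -0.25 without barcodes above 3 times the median depth, -0.33 among barcodes that end in a base, -0.21 among the least cycling cells, -0.17 among cells of 5000 to 15000 UMIs, -0.58 with TMM, -0.52 with median-of-ratios, -0.15 with the reduced total and -0.35 as a mean of single-cell CPM. Over VCaP-ENZ48, those of LNCaP-ENZ168 (0.87) moved to 0.91 among barcodes that end in a base, 0.96 among the least cycling cells, 0.82 in the depth band, 0.33 with TMM, 0.37 with median-of-ratios, 0.59 with the reduced total, 1.00 as a mean of single-cell CPM and 0.83 without FOS. The median member relative to all genes between the VCaP libraries (-0.24) moved to -0.18 without the deepest barcodes, -0.16 among the least cycling cells, -0.31 in the depth band, -0.28 with median-of-ratios, -0.28 with the reduced total, -0.36 as a mean of single-cell CPM, -0.45 at a minimum of 1 CPM and -0.057 at 50 CPM. For LNCaP-ENZ168 over VCaP-ENZ48 (-0.02) it moved to -0.12 without the deepest barcodes, 0.17 among barcodes that end in a base, 0.12 among the least cycling cells, -0.11 in the depth band, -0.18 with the reduced total and 0.21 at 50 CPM.

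The median of all genes shifted by -0.27 with TMM, -0.19 with median-of-ratios and 0.18 with the reduced total between the VCaP libraries, and by -0.55, -0.51 and -0.28 in the other comparison. Genes higher and lower by a log2 ratio of 1 then numbered 472 and 1032, 624 and 960, and 1054 and 456 between the VCaP libraries, against 633 and 523, and 1443 and 1440, 1701 and 1594, and 2617 and 1523 in the other, against 3145 and 979. Among the least cycling cells the numbers for VCaP were 529 and 219. With a minimum of 1 CPM they were 1937 and 699 for VCaP and 5224 and 3070 for the other, and with 50 CPM they were 146 and 245, and 1031 and 320. Members past that size were 2 higher (not JUNB) and 3 lower for VCaP with TMM, and 1 higher (ATF3, not JUN or JUNB) and 0 lower in the other comparison with each of these scalings.

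The mean correlations (0.11 in LNCaP-ENZ168, 0.067 in VCaP parental and 0.084 in VCaP-ENZ48) changed with the depth of thinning, which also changed how many members entered (7 to 10): thinning to 4000 UMIs gave 0.13, 0.094 and 0.12, and thinning to 1000 UMIs gave 0.082, 0.035 and 0.089. Pearson residuals without thinning gave 0.19, 0.18 and 0.22, and members in at least 10% of cells gave 0.13, 0.10 and 0.13. LNCaP-ENZ168 moved to 0.069 among the least cycling cells and 0.080 in the depth band, VCaP-ENZ48 to 0.13 in the depth band, and VCaP parental to 0.044 among barcodes that end in a base.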
